A study of Mus musculus with 6 samples.

Results

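Alternative 5′ splice sites that lie more than 50 bases apart were examined in CD4+ T cells with and without the splicing factor CD2BP2/U5-52K. In each such event 1 exon can end at an upstream 5′ splice site, giving the short exon, or at a downstream one, giving the long exon, and both are joined to the same next exon. The members were chosen by distance alone: events of the alternative 5′ splice site (A5SS) class in which the long exon exceeded the short one by more than 50 bases. There were 1339 such events among 2434 A5SS events, in 1031 genes and with 1211 different pairs of sites. The other 1095 events had sites up to 50 bases apart.

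RNA was sequenced from CD4+ T cells that were sorted from the spleens and lymph nodes of adult male mice. The 3 cKO libraries carried both floxed alleles and the Cre transgene (U5-52K f/f CD4-Cre tg), in which the CD4 promoter removes the gene from the double positive stage of thymic development onwards. The Control group held 3 libraries of 2 genotypes, 2 with 1 floxed allele and Cre (U5-52K wt/f CD4-Cre tg). The third had both floxed alleles and no Cre (U5-52K f/f CD4-Cre-). Cre was thus present in all cKO libraries and in 2 of the 3 Control libraries. The splicing lists do not show which Control library lacked it, so the values without each Control library in turn include the comparison in which all libraries carried Cre.

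A 5′ splice site marks the start of an intron. It is bound first by the U1 snRNP and is later handed to U6, while the U5 snRNP holds the exon ends for joining. CD2BP2/U5-52K is an assembly factor of the U5 snRNP that leaves it before the tri-snRNP forms. When 2 sites compete for 1 downstream acceptor, the choice between them sets how much of the intron's start stays in the mRNA. Where that segment holds a stop codon in the reading frame, the long form can be a target of nonsense-mediated decay. Its level in RNA then reflects both how often it is made and how long it lasts. Where a separate exon ends at the downstream site, both forms can instead differ by that exon. The events were not checked for this.

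The segment between both sites had a median length of 172 bases and ranged from 51 to 5324 bases over the 1339 events (GRCm38, GENCODE M21 transcripts). It overlapped coding sequence in 1015 events (75.8%), lay in a 5′ UTR in 120, in a 3′ UTR in 29 and in transcripts with no reading frame in 169. Its length was a multiple of 3 in 484 events (36.1%), against 40.8% of the events with closer sites. Of the 941 segments whose frame and sequence could be read, 684 (72.7%) held an in-frame stop codon, against 120 of 713 (16.8%) where the sites were closer. Longer segments hold more codons, so this share is not independent of the distance that defined the events.

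The splice sites themselves are shown for 8 of the 9 events called as differential between cKO and Control, and for 2 others with a low FDR at a smaller difference (Rac2 and Psma3), since the results turn on these pairs of sites. Each run has 12 exon bases and 12 intron bases at the site, 5′ to 3′ on the gene's strand, and the capitals mark the last 3 exon and the first 6 intron bases, the stretch that pairs with U1. The short site is the upstream one. Long sites are given where an annotated exon runs across them.
Lrmp, short site, chr6:145137596-145137619, plus strand: aagagggtgCCAGTAAGTgaggtc
Ccnt2, short site, chr1:127797875-127797898, plus strand: ggctaccaaCAGGTTGTTatcctg
Ccnt2, long site, chr1:127798185-127798208, plus strand: cctagaaacTTGGTAAGTataaag
Senp2, short site, chr16:22011541-22011564, plus strand: ggccaagatTAGGTACTAcatctt
Ccnl1, short site, chr3:65955192-65955215, minus strand: gtcatggcaACAGTGAGTgaagta
Ntmt1, short site, chr2:30819757-30819780, plus strand: catgctcggGGGGTATGGccacat
Gas5, short site, chr1:161036841-161036864, plus strand: acagtttgaAAGGTAAGTattgaa
Gas5, long site, chr1:161037153-161037176, plus strand: tggcttgctTGGGTAAGAagccat
Tmem134, short site, chr19:4127628-4127651, plus strand: cgcctgctgCAGGTGAGAgcctcc
Tmem134, long site, chr19:4127825-4127848, plus strand: tgttggggcTAGGTGAGTgtccta
Cnot7, short site, chr8:40500740-40500763, minus strand: atcatttcaCAGGTAAAAaataaa
Rac2, short site, chr15:78570720-78570743, minus strand: catccccacTGTGTGAGTggcttc
Psma3, short site, chr12:70984583-70984606, plus strand: attcctctaAAAGTAAGTtgacaa
Psma3, long site, chr12:70984734-70984757, plus strand: ttttggctgCAGGTATGAaatttt

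Every site printed here opens its intron with GT. Over all members the short site could be read in 1332 events, and it began with GT in 1289 (96.8%), with GC in 41 and with AT in 2. A G stood at intron position 5 in 72.7% of the short sites. Set against the 9-base consensus for U1 pairing, the median site matched 6 of 9 bases, both for short sites and for the 499 long sites that could be read. Where both sites of a pair were readable (498 events), the long site matched more bases in 176, the short site in 180, and both equally many in 142. Among the sites listed, the short site of Gas5 matched 8 bases and its long site 6.

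Use of the sites was taken from deposited rMATS counts of reads at the junctions and in the exon bodies of both forms. The share of the long form, ψ, is the length-scaled count of the long form over the sum of both forms. A value of 0 means only short-form reads and 1 only long-form reads. Reads inside the segment count for the long form whether or not they cross its junction, and RNA that still holds the intron adds to them as well. Reads of a separate exon that ends at the long site would count in the same way. Transcripts were matched to each site by that site alone, not by where the exon starts. A high ψ thus need not mean that the segment is kept whole, which was not tested. The deposited lists give 3 values per condition with no library names, so libraries are called here the first, the second and the third of the cKO or Control list. The lists do not name the conditions either. Their order was inferred from how the study defines its difference in ψ, and spliced reads of the deleted gene Cd2bp2 in the retained intron table, 27, 13 and 28 in the lists taken as cKO against 132, 142 and 104 in those taken as Control, differ in the direction of the deletion. The places were not assigned to animals. The p-values rest mostly on a spread between libraries pooled over events (a prior with 111.1 degrees of freedom). An event's own spread between libraries has little weight in them. Events with widely spread libraries could thus pass, such as Hnrnpa3 with a dispersion of 24.15 beside a prior of 2.27. Reads summed over the 1339 events were 562481, 674920 and 720578 in the cKO lists, against 523437, 648916 and 483415 in the Control lists.

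At gene level the libraries held 69981159 to 82286366 reads in genes in cKO and 56995121 to 75606222 in Control. Cd2bp2, the deleted gene, had 884, 874 and 738 normalised counts in cKO, against 2624, 2602 and 2612 in Control (log2 fold change -1.65 ± 0.11 SE, limma adjusted p = 0.00137). Markers of CD4+ T cells summed to 328066 to 359413 in cKO and to 348538 to 412174 in Control. The 6 myeloid markers, all of them detected, summed to 19051 in 1 cKO library (KO_7.8), against 3504 and 4611 in the other cKO libraries and 2270 to 4422 in Control. The 4 NK markers ranged from 22943 to 27972 in cKO and from 10148 to 15999 in Control. The 5 B cell markers summed to 4067 to 7620 in cKO and to 8501 to 11276 in Control, lower in every cKO library. The 3 erythroid markers found were high in 1 library of each condition, with 3042 in KO_7.8 and 4032 in CTRL_5.6, against 140 to 462 in the other 4. The splicing lists name no libraries, so these values were not assigned to places. Taken in sample order, reads in genes ranked within each condition as the summed reads of the list places did. The lowest were KO_7.8 (69981159) and the first cKO place (562481), and CTRL_5.6 (56995121) and the third Control place (483415). By read totals alone, these places would be KO_7.8 and CTRL_5.6, the libraries with high erythroid markers. This match and the part of the markers in the splicing values were not tested. By flow cytometry the paper reports more effector memory and fewer naive cells among CD4+ T cells of the cKO spleen. In lymph nodes it reports more central memory cells. The CD4+ T cells compared here may thus differ in this make-up, and its part in the splicing values was not tested either.

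Of the 1339 events, 1039 in 852 genes had enough reads for a test (20 or more on average in cKO and in Control alike). Among them 9 were differential splice variants (DSVs, FDR under 0.01 in a quasi-binomial test adjusted over all 1843 tested A5SS events, and a difference in ψ of at least 0.1). This is 0.866% of the tested members, close to the 1.09% over all A5SS events. In 5 DSVs the long exon rose in cKO, where 0.814% of all A5SS events were called in that direction. The genes were Lrmp, Ccnt2, Senp2, Ccnl1 and Ntmt1. In the other 4 the long exon fell in cKO, against 0.271% over all A5SS events, in Gas5, Brd8, Tmem134 and Cnot7. The events with closer sites had 11 DSVs among 804, 10 with more and 1 with less of the long exon in cKO. Whether both distance classes differ was not tested.

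**Figure D1:**
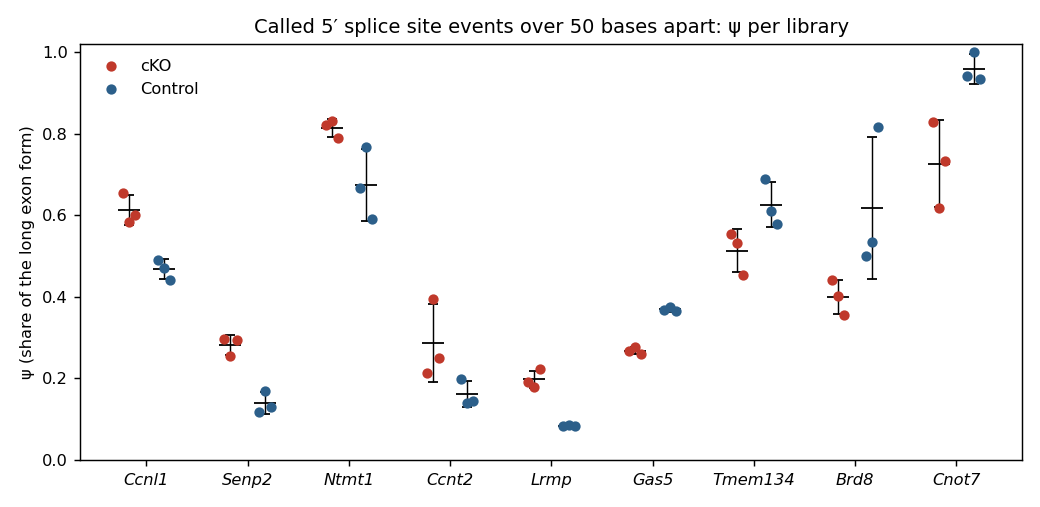
ψ, the share of the long exon form on a scale of 0 to 1, in each library for the 9 DSVs with sites over 50 bases apart. Red points are the 3 cKO and blue points the 3 Control libraries, bars show the mean and SD, and in all 9 events both groups are apart, narrowly in Ccnt2, Ntmt1 and Tmem134.

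The clearest change with more of the long exon was in Lrmp, which codes for a membrane protein of the endoplasmic reticulum found in lymphocytes. ψ was 0.190, 0.180 and 0.222 in cKO, against 0.083, 0.084 and 0.082 in Control. All cKO libraries lay above all Control libraries, and the Control values were nearly equal. Counts of the long form were 230, 266 and 305 in cKO and 140, 154 and 101 in Control, beside 232, 288 and 254 reads of the short form in cKO and 365, 396 and 268 in Control. The difference in ψ was 0.114 ± 0.013 (SE, n = 3 each, FDR = 1.1e-11). The segment, chr6:145137608-145138086, adds 479 bases with an in-frame stop codon, and the transcripts that use the long site are annotated as targets of nonsense-mediated decay or as retained introns. Lrmp was the only DSV of the 9 that stayed called with each library left out in turn and in edgeR's test (FDR = 0.00239). The gene had 1 other tested member, which did not pass the FDR threshold.

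Ccnt2 codes for cyclin T2, a partner of CDK9 in the elongation factor P-TEFb. Its long exon had a ψ of 0.213, 0.394 and 0.250 in cKO, against 0.20, 0.140 and 0.146 in Control, a difference of 0.124 ± 0.058 (FDR = 4.1e-05). The second cKO library was far above the rest, and the first cKO library was only just above the highest Control library. Without the second cKO library the difference was 0.070 (FDR = 0.117), and without the third Control library the FDR was 0.0225. In edgeR's test it was 0.14. The 310-base segment, chr1:127797887-127798196, contains an in-frame stop and occurs in 1 annotated transcript, which has no reading frame.

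In Senp2, which encodes a protease that removes SUMO from proteins, ψ was 0.297, 0.254 and 0.295 in cKO, against 0.118, 0.169 and 0.130 in Control. The groups did not overlap, and the ratio of the mean shares was 2.03 (difference 0.143 ± 0.021, FDR = 0.00343). This event rests on 33, 77 and 106 long-form reads in cKO and on 28, 48 and 23 in Control. The 67 added bases, chr16:22011553-22011619, hold an in-frame stop, and the 1 annotated transcript with them is a target of nonsense-mediated decay. Leaving out 1 library gave FDR values of 0.00495 to 0.0537, with the call lost without the second or the third cKO library and without the first or the third Control library. The difference itself stayed between 0.132 and 0.158.

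Ccnl1 codes for cyclin L1, which binds CDK11 and has been linked to splicing itself. Here ψ was 0.655, 0.582 and 0.601 in cKO, against 0.490, 0.471 and 0.441 in Control (difference 0.146 ± 0.026, FDR = 0.00251). Both groups were tight and apart. The 74-base segment, chr3:65955130-65955203, lies past the stop codon in a transcript annotated for nonsense-mediated decay. The short site is used in 6 annotated transcripts, none of which is annotated as protein coding. The call was lost without any 1 of the cKO libraries or without the third Control library. The FDR was then at most 0.0611 and the difference at least 0.1245. Ccnl1 had 2 other tested members, and neither passed the FDR threshold.

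For Ntmt1, the methyltransferase that acts on protein N termini, ψ was 0.822, 0.832 and 0.788 in cKO, against 0.668, 0.766 and 0.591 in Control, a difference of 0.139 ± 0.052 (FDR = 0.00461). The cKO libraries were close together, and the Control libraries spread widely below them with the highest only just lower. In this gene the long site (64 more bases, chr2:30819769-30819832) is the one used in 5 protein-coding transcripts. The 2 annotated transcripts that use the short site are targets of nonsense-mediated decay. Without the third Control library, the lowest one, the difference was 0.097 (FDR = 0.248). The call was also lost without the first or second cKO library or the first Control library.

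Among the 4 DSVs with less of the long exon, Gas5 had the most reads. It is a long non-coding RNA whose introns hold small nucleolar RNAs. ψ was 0.267, 0.277 and 0.260 in cKO, against 0.367, 0.376 and 0.365 in Control, with the libraries of each group close together and the groups far apart. Long-form reads were 834, 740 and 658 in cKO and 1034, 986 and 1147 in Control. The difference was -0.101 ± 0.006 (FDR = 7.03e-09) and thus just past the threshold of 0.1, so that the call ended without the third cKO library (-0.097) or the second Control library (-0.098) while the FDR stayed at or below 3.6e-05. The segment is chr1:161036853-161037164 (312 bases). edgeR's test gave an FDR of 0.191.

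Gas5 had 10 further tested events with sites over 50 bases apart, of which 2 use the same short site as this one and others lie upstream. None of these reached the FDR threshold. The lowest FDR was 0.39, for a 335-base segment upstream (ψ 0.898 in cKO and 1 in Control, 63.8 reads per library).

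Brd8 encodes a bromodomain subunit of the NuA4/TIP60 histone acetyltransferase complex, and its sites on chromosome 18 are 1387 bases apart. ψ was 0.441, 0.402 and 0.356 in cKO, against 0.501, 0.533 and 0.817 in Control (difference -0.217 ± 0.103, FDR = 0.00157). The third Control library was far above the others. Without it the difference was -0.118 (FDR = 0.132), and the call was also lost without the second or the third cKO library. Short-form reads were 78, 140 and 164 in cKO, against 47, 51 and 9 in Control. The short exon in Brd8 ends at a site that matches all 9 consensus bases, and the segment has an in-frame stop.

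Tmem134, named for a transmembrane protein, had a ψ of 0.554, 0.532 and 0.453 in cKO, against 0.688, 0.611 and 0.579 in Control (difference -0.113 ± 0.044, FDR = 0.0046). The gap between the groups was smaller than the spread within either of them. The 197-base segment is chr19:4127640-4127836. In the annotation used, the gene is a processed transcript, and no transcript with either site is annotated as protein coding. Without the third cKO library the difference was -0.083 (FDR = 0.238), and without the first Control library it was -0.082 (FDR = 0.117). The call was also lost without the second cKO or the third Control library.

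Cnot7 codes for a deadenylase of the CCR4-NOT complex, which shortens poly(A) tails. ψ was 0.829, 0.618 and 0.733 in cKO, against 0.941, 1 and 0.934 in Control, the widest difference among the DSVs (-0.232 ± 0.065, FDR = 0.00542). It rests on few reads of the short form, 8, 27 and 18 in cKO against 2, 0 and 2 in Control. Long-form reads numbered 419, 470 and 532 in cKO and 344, 416 and 306 in Control. Whether they cover the whole 1457-base segment, chr8:40499295-40500751, or only a part of it was not checked. The call held in edgeR's test (FDR = 0.00361), and it was lost without the second cKO library or any one of the Control libraries (FDR up to 0.117).

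Division by length bears most on such long segments. With ψ taken from the counts alone, Brd8, Tmem134 and Cnot7 had differences of -0.066, -0.086 and -0.031 and were no longer DSVs, while 4 others became DSVs, Fam204a, Rrp1b and Ube2j2 among them. That gave 10 DSVs, of which 9 had more and 1 had less of the long exon in cKO. The split of 5 and 4 therefore depends on the scale of ψ.

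A further 16 events passed the FDR threshold at a difference below 0.1, so that 25 members passed in all, 18 with more and 7 with less of the long exon in cKO. This is 2.41% of the tested members, where 2.6% of all tested A5SS events passed. The members were named after their values were seen, apart from Rac2 and Arpc2, which are among the 5 with the most reads. In 15 of the 16 the rarer of the 2 forms was the one that rose in cKO, and in 12 of the 16 the rarer form was the long exon.

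Rac2, a small GTPase of blood cells, had the lowest FDR of all members. It was spliced almost entirely at the short site, and long-form reads numbered 156, 249 and 239 in cKO, against 32, 71 and 39 in Control. The share of the long form was 0.976%, 1.21% and 1.03% in cKO, against 0.198%, 0.321% and 0.279% in Control. Each cKO library was thus more than 3 times as high as any Control library (ratio of the means 4.03, difference in ψ 0.0080 ± 0.0008, FDR = 4.42e-17). The 54 added bases, chr15:78570678-78570731, keep the length a multiple of 3 but hold an in-frame stop, and the only annotated transcript with them is a target of nonsense-mediated decay.

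Arpc2, a subunit of the actin-branching Arp2/3 complex, showed a similar picture at a lower level, with 23, 57 and 57 long-form reads in cKO, against 15, 10 and 5 in Control. Its long form made up 0.189% in cKO and 0.051% in Control (FDR = 0.000193). The first cKO library was closest to Control.

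Psma3, a proteasome subunit gene, differed in the other form. Reads of its short form numbered 26, 24 and 33 in cKO, against 0, 0 and 2 in Control. Long-form reads beside them were 3222, 3232 and 3399 in cKO and 2094, 2698 and 2072 in Control. The short form made up 1.6%, 1.47% and 1.92% in cKO, and its highest value in Control was 0.194% (difference in ψ -0.016 ± 0.001, FDR = 1.38e-05). Reads that join the short site to this next exon were thus nearly absent in Control. These counts leave out any joining of the short site to other exons. Both sites match the consensus in 7 of 9 bases. A second Psma3 event with the same segment had 32.7 reads per library and did not pass the test (FDR = 0.755).

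In Evl, an actin regulator of the Ena/VASP family, ψ was 0.621, 0.623 and 0.672 in cKO, against 0.733, 0.682 and 0.746 in Control (difference -0.082 ± 0.026, FDR = 6.76e-06). It did not pass in edgeR's test (FDR = 0.323).

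**Figure D2:**
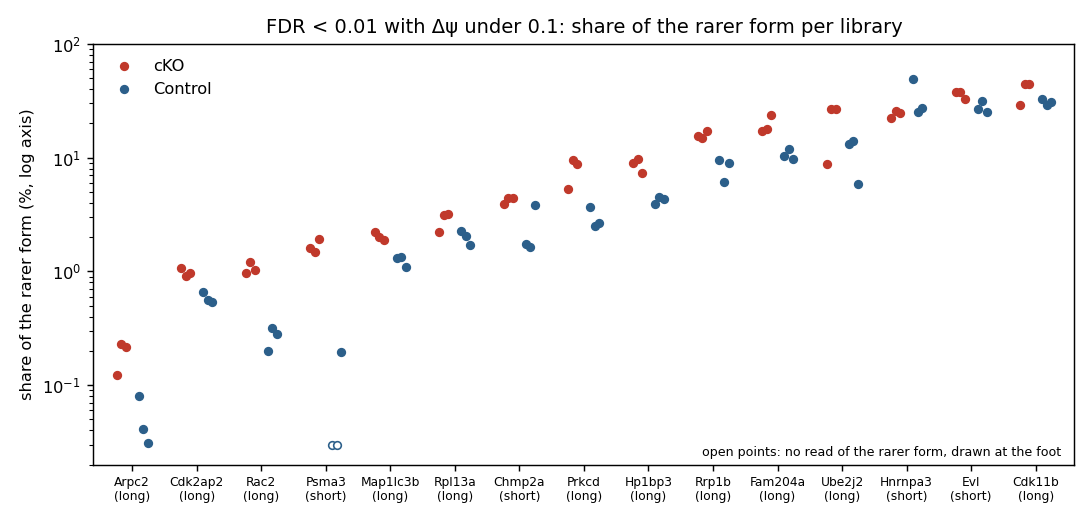
Share of the rarer exon form in percent, on a log axis, in each library for 15 of the 16 members that passed an FDR of 0.01 at a difference in ψ below 0.1, with cKO in red left of Control in blue. The name of the rarer form is under each gene, open points mark libraries with no read of it, and in 14 of the 15 plotted events the mean was higher in cKO.

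Other rare long forms with higher shares in cKO were those of Cdk2ap2 (0.989% in cKO and 0.584% in Control), Map1lc3b (2.04% in cKO and 1.25% in Control), Prkcd (7.85% in cKO and 2.96% in Control) and Hp1bp3 (8.71% in cKO and 4.25% in Control). Their libraries did not overlap between conditions. Prkcd codes for protein kinase C delta and Map1lc3b for the autophagosome protein LC3B. In Chmp2a, a subunit of the membrane-cutting ESCRT-III complex, it was the short form that made up 4.27% in cKO and 2.42% in Control, with 1 Control library at 3.87%.

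In 4 of the 16 events the libraries overlapped between conditions. The first cKO library lay at the level of the Control libraries in Ube2j2 (8.73% of the long form, against 26.8% and 27% in the other cKO libraries and 5.82% to 14% in Control) and in Cdk11b (28.8%, against 44.4% in each of the other cKO libraries and 28.9% to 32.5% in Control). Rpl13a, a ribosomal protein gene, had 2.23%, 3.11% and 3.21% in cKO and 1.71% to 2.28% in Control. Hnrnpa3, a gene of an RNA-binding protein, was the exception in direction, and its short form made up 22.4% to 25.9% in cKO, against 49.1%, 25.2% and 27.6% in Control.

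**Figure D3:**
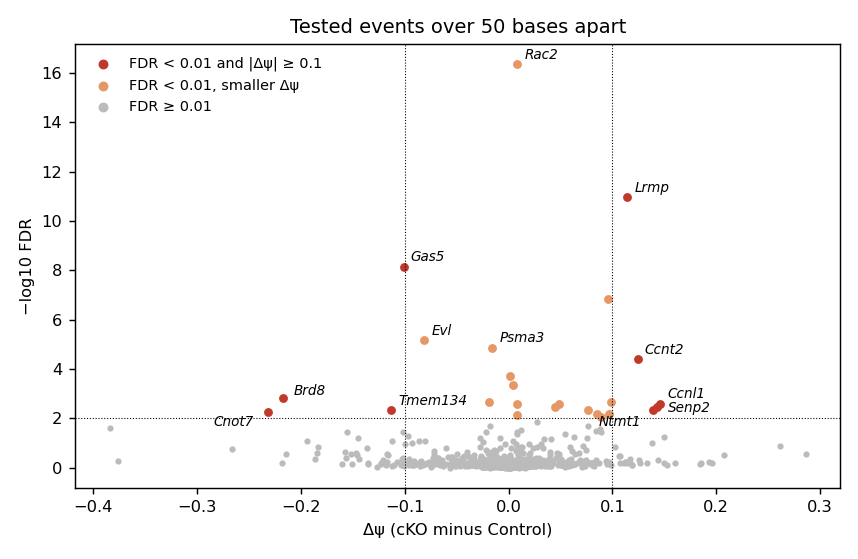
Difference in ψ (cKO minus Control) against the −log10 FDR for the 1039 tested members. Red marks the 9 DSVs, orange the 16 members that passed the FDR at a smaller difference and grey the rest, and dotted lines show an FDR of 0.01 and a difference of 0.1.

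The direction of the differences went with the level of ψ. Of 355 members with a mean ψ of up to 0.5 over the 6 libraries, 226 (63.7%) had a higher ψ in cKO, and of those past the FDR threshold 15 were higher and 1 was lower. Of 684 members with a mean ψ above 0.5, 266 (38.9%) were higher in cKO, with 3 higher and 6 lower among those past the threshold. Over all 25 members that passed, the rarer form was higher in cKO in 21 and lower in 4, which were Gas5, Ccnl1, Ntmt1 and Hnrnpa3. This split was not counted again in edgeR's test or with libraries left out, where fewer members passed. The rarer form was set by the mean of both conditions, so the name means little near a ψ of 0.5. Among those higher, the short form made up 60% in cKO in Brd8 and 48.7% in Tmem134. Among those lower, it made up 53.3% in Control in Ccnl1. The cKO lists held more reads than the Control lists, with 2 of the 3 cKO libraries above every Control library, and a rare form is seen at all more often in deeper libraries, so the counts were repeated for events with 5 or more reads of the rarer form on average. Then 153 of 236 (64.8%) events with a low mean ψ and 90 of 202 (44.6%) with a high mean ψ were higher in cKO. Events with closer sites had 64.9% higher in cKO for the low and 50.2% for the high mean ψ.

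**Figure D4:**
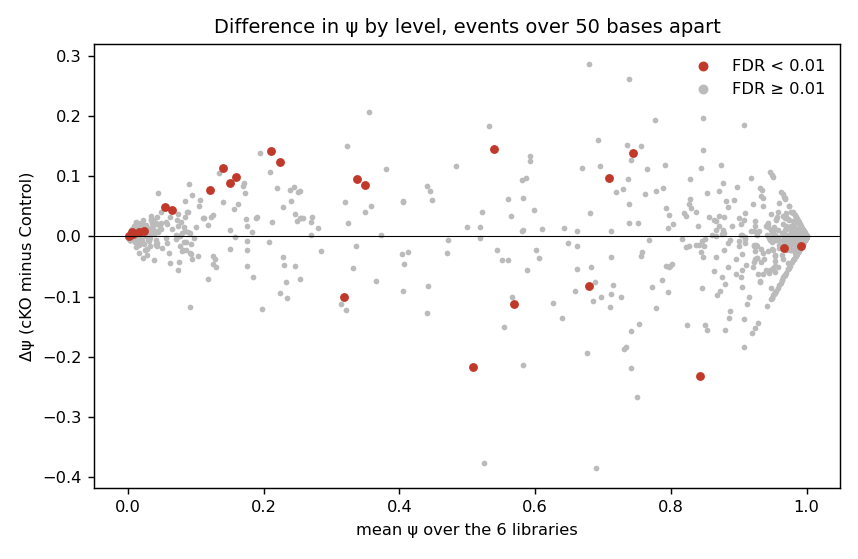
Difference in ψ (cKO minus Control) of each of the 1039 tested members against its mean ψ over the 6 libraries, with members past an FDR of 0.01 in red. At a mean ψ of up to 0.5, 15 of 16 red points lie above 0, and above 0.5 there are 3 above and 6 below it.

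Most members did not pass the test. An unadjusted p under 0.05 was reached by 136 of the 1039 (13.1%). The median ψ was 0.897 in cKO and 0.911 in Control, and the median size of the difference was 0.012. ψ was higher in cKO in 492 and lower in 547. The 3 cKO libraries lay all above or all below the 3 Control libraries in 156 events (15%, 91 above and 65 below), while 15.7% of all tested A5SS events were without overlap.

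Past the FDR threshold were 2.41% of all tested members and 2.6% of all tested A5SS events, and the counts in subsets of the members stand beside these shares with no test. By distance, events with 51 to 100 bases between the sites included 3 DSVs and 8 members past the FDR threshold of 304, all 8 with more of the long exon in cKO. Above 100 and up to 300 bases 11 of 385 passed (7 higher and 4 lower), above 300 and up to 1000 bases 4 of 229 (3 higher and 1 lower), and above 1000 bases 2 of 121, Brd8 and Cnot7, both lower. The 75 tested events in which the exon is the first one in all annotated transcripts had 53 with a higher ψ in cKO (70.7%, beside 47.4% of all tested members) and 6 past the FDR threshold, all of them higher. These were Cdk2ap2, Ube2j2, Hp1bp3, Hnrnpa3, Rpl13a and Fam204a. In Ube2j2, Hnrnpa3 and Rpl13a the libraries overlapped between conditions. The 75 events had a low median ψ, 0.209 in cKO and 0.156 in Control. Of all members with a mean ψ of up to 0.5, 63.7% were higher in cKO, with 15 higher and 1 lower past the FDR threshold. Whether first exons differ from other events of such a level was not tested. Where the segment held an in-frame stop, 12 of 551 passed (8 higher and 4 lower), and where it held none, 5 of 197 (4 higher and 1 lower).

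The widest differences of all were not DSVs. In Smox, which encodes spermine oxidase, ψ was 0.618, 0.348 and 0.525 in cKO, against 0.926, 0.865 and 0.852 in Control, with no overlap (difference -0.384 ± 0.083, FDR = 0.0242). The short form there had 6, 22 and 6 reads in cKO and 1, 2 and 1 in Control. In Marf1, a gene of an RNA-binding protein, ψ was 0.887, 0.901 and 0.817 in cKO, against 0.792, 0.601 and 0.429 in Control (difference 0.261 ± 0.108, FDR = 0.134). In Ccdc186 it was 0.916, 0.853 and 0.700 in cKO, against 0.562, 0.602 and 0.445 in Control (difference 0.286 ± 0.080, FDR = 0.278), at 33.7 reads per library. Cep295, a centriole protein gene, had values of 0.092, 0.283 and 0.634 in cKO and of 0.373, 0.764 and 1 in Control, and libraries of both groups overlapped. Each of these 4 events had fewer than 100 reads per library on average.

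The remaining members among the 10 widest differences in each direction had FDR values of 0.0588 to 0.755. With a lower mean ψ in cKO these were Kat14 (-0.267), Tmem8 (-0.218), Fuz (-0.214), Srp19 (-0.194), Zmym3 (-0.187) and Adamts10 (-0.184). With a higher mean ψ in cKO they were Mtch1 (0.207), Piga with 2 events (0.196 and 0.184), Ciz1 (0.193), Cope (0.185), Ankrd16 (0.160), Cyb561d1 (0.153) and Esco1 (0.150). In Cope the whole difference came from 1 Control library at 0.445, with all others at 1. Esco1, an acetyltransferase of sister chromatid cohesion, had the most even values, 0.403, 0.411 and 0.381 in cKO against 0.187, 0.307 and 0.250 in Control (FDR = 0.0588).

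Other members with the most reads had differences near 0. Ppia (cyclophilin A) and Rps16, and the second event of Rpl13a, had a ψ above 0.999 in all 6 libraries. The segments of these events hold an in-frame stop codon, and whether they were kept whole in the RNA was not tested.

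Genes of RNA splicing and processing held 21 tested members in 19 genes, and none of these was a DSV or passed the FDR threshold. ψ was higher in cKO in 10 and lower in 11, with a median difference of -0.00071 beside -0.00055 over all tested members. Libraries did not overlap in 3. Luc7l, a homologue of the yeast U1 protein Luc7, had long-form shares of 0.0036, 0.0009 and 0.0037 in cKO and of 0 in all Control libraries (FDR = 0.161). Tia1, an RNA-binding protein that helps U1 at weak 5′ splice sites, had 0.056, 0.067 and 0.037 in cKO, against 0.114, 0.086 and 0.088 in Control (FDR = 0.332). Hnrnpm, Hnrnpk and Rbm3 had a ψ of at least 0.967 in every library.

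Chromatin and transcription genes had 12 tested members in 10 genes, with 2 DSVs, Ccnl1 (higher) and Brd8 (lower), where 0.866% of all tested members and 1.09% of all tested A5SS events were DSVs. The list was chosen with earlier results of these data known, so nothing is read from this count. In the list 6 members were higher and 6 lower, with a median difference of -0.0024. Med23, a Mediator subunit, had a ψ of 0.968, 0.950 and 0.963 in cKO and of 1 in all Control libraries (FDR = 0.235). Ikzf2, the transcription factor Helios, had 0.545, 0.394 and 0.368 in cKO, against 0.351, 0.404 and 0.218 in Control (FDR = 0.63), and its libraries overlapped. Nsd1 and Smarca2 differed by -0.038 and 0.0015, with FDR values of 0.712 and 0.755.

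Of genes of T cell receptor signalling and costimulation, 4 had a tested member, and none passed. Nfatc1, a transcription factor of T cell activation, had 0.217, 0.186 and 0.231 in cKO, against 0.255, 0.246 and 0.234 in Control, apart by a narrow margin (FDR = 0.44). Vav1 and Dgkz differed by -0.0066 and 0.026. In the p53 and apoptosis list there were 2 tested members. Bcl2l11, which codes for the pro-apoptotic protein Bim, had 1, 0.929 and 0.972 in cKO, against 0.858, 0.870 and 0.882 in Control, with no overlap (difference 0.097 ± 0.022, FDR = 0.6, 73.5 reads per library). Plk3 had a ψ of 1 in all libraries but 1 in Control.

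Since RNA with the whole intron adds reads to the long form, the retained intron (RI) table was set beside these events. Of the 1039 tested members 80 lay within a tested intron of that table, and in none of these was the intron called, where 0.181% of all tested RI events were. Gas5 was the only DSV among them, and its intron had a share retained of 0.078 ± 0.007 in cKO and of 0.089 ± 0.012 in Control (SD, n = 3 each, FDR = 0.681). The other 8 DSVs lay in no tested intron of that table.

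Few host genes of the members passed a test of their own level. Of the 852 host genes 838 were tested, and 1 was called (0.119%), while 0.564% of all 11001 tested genes were called (limma adjusted p under 0.05 and a log2 fold change above 1 in size). This gene, Rnaset2b, had 206, 205 and 186 normalised counts in cKO, against 398, 393 and 414 in Control (log2 fold change -1.01 ± 0.16 SE, adjusted p = 0.0416). It has a near-identical neighbouring copy, so reads may be divided between both, and its call was lost without any 1 library other than KO_7.8 (adjusted p up to 0.242), with a pseudocount of 10 (log2 fold change -0.98) and with no filter on low values (adjusted p = 0.0675). Its splice event did not pass (ψ 0.103 in cKO and 0.148 in Control, FDR = 0.391). Evl was lower in cKO without reaching that fold, with 22077, 22691 and 23918 normalised counts in cKO, against 36249, 38340 and 38697 in Control (log2 fold change -0.72 ± 0.08, adjusted p = 0.0152). With 1 library left out the adjusted p of Evl was 0.028 without KO_7.8 and 0.0596 to 0.0946 without any other. Nub1 was the third host gene with an adjusted p under 0.05 (log2 fold change 0.52, adjusted p = 0.0499), and with 1 library left out its adjusted p was 0.0679 to 0.242.

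None of the 9 host genes of DSVs was called. Brd8 was nearest, with 17602, 22165 and 21016 normalised counts in cKO and 14555, 14427 and 11940 in Control (log2 fold change 0.57 ± 0.13, adjusted p = 0.106). Gas5 had 6115, 4339 and 4007 in cKO, against 6331, 4998 and 8431 in Control (log2 fold change -0.44 ± 0.23, adjusted p = 0.392). Lrmp, whose splicing changed most clearly, differed by 0.09 ± 0.11 (adjusted p = 0.742), and Ccnt2, Senp2 and Ccnl1 by -0.01, -0.02 and 0.01, values that turned sign under other settings.

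**Figure D5:**
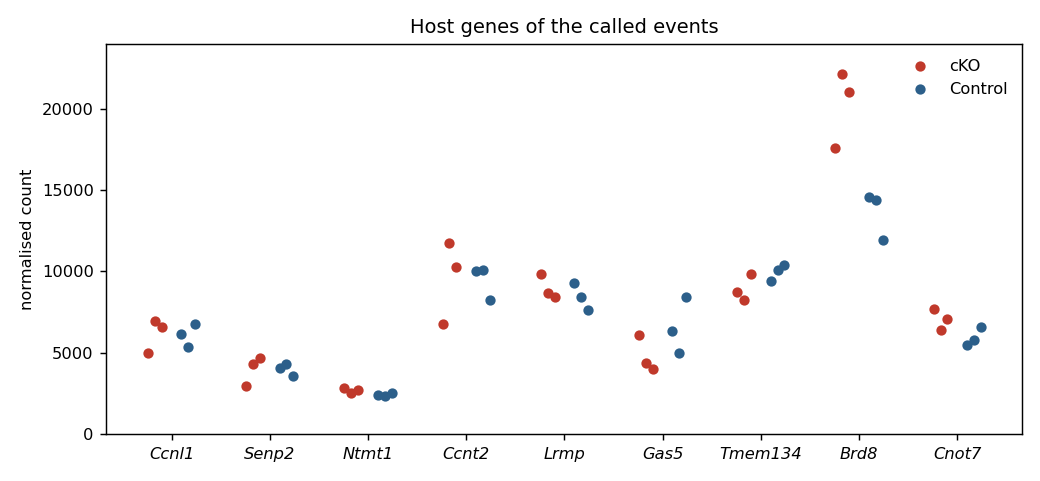
Normalised counts of the host genes of the 9 DSVs in each library, with cKO in red left of Control in blue on an axis that starts at 0. The libraries overlap between conditions in 8 of the 9 genes and are apart in Brd8, and none of the 9 was called.

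At the boundary of the choice by distance, 12 events had sites 51 bases apart and 5 had sites 50 bases apart. The 9 tested events at 51 bases included those in Cwf19l1, Dpp3, Mtch1, Sil1, Cep170, Rb1cc1, Nup98 and Plk3, and the 3 tested at 50 bases in Mapk7, Med8 and Mrpl4. Mapk7 had a ψ of 0.091 in cKO and 0.081 in Control, and Nup98 just inside had 0.28 in cKO and 0.20 in Control.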

How the data were processed

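RNA of CD4+ T cells from 3 cKO and 3 Control libraries was sequenced by the authors, trimmed with cutadapt, aligned to GRCm38 with STAR and analysed with rMATS, by the paper's methods. The deposited rMATS tables, which hold other per-event values by the authors (p-values, FDR and ψ differences, not used here), gave junction and exon-body counts of both forms, unnamed within a condition, and an effective length of each form. All per-sample columns of the tables used were read. The direction of the conditions in the tables was inferred from the study's definition of the ψ difference and the order in which rMATS subtracts its groups, since the tables do not name the conditions. Deposited normalised gene counts are a signal, counts divided by DESeq2 size factors by the authors, and all values were whole reads within 0.01 reads after that division was undone.

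A quasi-binomial logistic model of the counts on condition was fitted to events that averaged 20 or more reads in cKO and in Control, with 1 or more in every library. The dispersion was moderated with limma 3.58.1 (R 4.3.3) towards a prior of 2.27 with 111.1 degrees of freedom, and had a floor of 1. This prior came from events averaging 5 or more reads of the rarer form. The p-values were adjusted by Benjamini-Hochberg over all 1843 tested A5SS events. DSVs had an FDR under 0.01 and a difference in ψ of at least 0.1. Named genes averaging 100 or more normalised counts were tested with limma on log2(count + 1), which understates folds of low genes. Alternatives used edgeR 4.0.16 and DESeq2 1.42.0. The tests were also run on simulated data in which all events, or all genes, had the same dispersion. Such data cannot show how the tests do where the dispersion differs between events. Named events were the DSVs, the 10 widest differences in each direction, the 5 events with most reads, listed genes without overlap or with most reads, and events at 50 and 51 bases. Members and lists were chosen with earlier results of these data known. Between libraries of a condition the mean chi-square per event was 1.99 to 2.17, more than sampling noise alone, so all were counted as separate samples. Frames, stops and splice site sequences come from GENCODE M21 transcripts. For strand in the counting: not given in the sources used here. Some items are not reported here.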

Additional observations from a re-analysis of the deposited data

How the results depend on the processing

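The 9 DSVs (5 with more and 4 with less of the long exon in cKO) stayed 9 with a minimum of 10 or 50 reads or none, with a dispersion prior over all events, with no floor and with each pair of sites counted once, and in each of these the same 9 were called. An FDR of 0.05 gave 12. edgeR's test gave 2, Lrmp and Cnot7 (1 with more and 1 with less of the long exon), where 144 members had an unadjusted p under 0.05. With ψ taken without lengths there were 10 (9 with more and 1 with less), of which 6 were shared, and with no threshold on the difference 25. Leaving out 1 library by its place in the lists gave 2 to 11 DSVs, 1 to 7 with more and 1 to 4 with less of the long exon. The counts were 11 without the first, 2 without the second and 4 without the third cKO library, and 7, 10 and 2 without the first, the second and the third Control library. The cause was not tested. No paired analysis was possible because the values of a condition carry no replicate numbers that the other condition shares.

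Among single events, 9 differences became 0 without the 1 library that held all reads of the rarer form. With 1 library left out they ran between 0 and -0.0001051 (Ppia), -0.001886 (Dpp3), -0.003253 (Sil1), 0.2774 (Cope), 0.002229 (Smarca2), 0.02432 (Plk3), 0.03931 (Dgkz), 0.0002619 (Hnrnpk) and 0.001125 (Rbm3). The second Rpl13a event ran from -6.961e-05 to 4.294e-05. Over 68 named events and their alternatives, 881 of 941 values kept direction and call.

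The count of called host genes was 1, and it was 0 with a pseudocount of 10 and with no filter on low values, and 0 to 1 with 1 library left out. edgeR and DESeq2 also called 1, and 70 host genes had an adjusted p under 0.05 in DESeq2, against 3 in limma. Log2 fold changes near 0 turned sign. Ccnt2 was at 0.0117 in edgeR and 0.0147 in DESeq2, and ran from -0.173 to 0.226 with 1 library left out, Senp2 from -0.15 to 0.179 and Ccnl1 from -0.0819 to 0.156. Depth limits what a test could detect in events with few reads of the rarer form, as in Cnot7 and Smox.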
